A study of Mus musculus with 2 samples.

Results

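Messenger RNA of 8 B cell marker genes was measured in medullary thymic epithelial cells (mTEC), the epithelium of the thymic medulla that shows developing T cells a broad range of self antigens. The genes were Ms4a1, Cd79a, Cd79b, Pax5, Blk, Cd22, Fcer2a and Fcrla, and they were chosen by name as all transcript lines whose RefSeq accession maps to these symbols. All 8 were present, in 17 of the 30794 transcript lines and among 23123 named genes. Both groups were mTEC from pooled thymi of wild-type (WT) B6 mice with no treatment named. The sort split them by surface MHC class II into a high group, mTEChi, and a low group, mTEClo, and each group gave 1 poly(A)-selected library. The number, age and sex of the mice are not given in the sources used here, and neither are the surface markers of the sort other than MHC class II. Each group having a single library, differences could not be set against a replicate spread, no test was made, and the text describes these 2 libraries only.

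B lymphocytes recognise antigen through the B cell receptor, a membrane immunoglobulin that signals through the paired chains encoded by Cd79a and Cd79b. Src-family kinases such as Blk act next to these chains, Cd22 dampens the signal, and the transcription factor Pax5 holds cells in the B lineage. The thymic medulla is known to contain a small population of resident B cells that carry MHC class II and present antigen to thymocytes, beside dendritic cells and macrophages. Several B cell genes are also used by other cells. In bulk RNA, fewer cells of a type and less RNA per cell cannot be told apart.

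Values are in RPKM, reads scaled by transcript length and sequencing depth, so that levels can be compared between genes. The values imply about 115000000 reads for mTEChi, read as pairs of 100 bases, and 20900000 for mTEClo, read singly at 50 bases, so read type and group cannot be told apart. The epithelial identity of the sorts was visible in both libraries. Epcam, an epithelial adhesion gene, was listed at 198 RPKM in mTEChi and 127 RPKM in mTEClo, Krt5 at 448 and 770 RPKM, Aire at 122 and 15.9 RPKM and the class II chain gene H2-Aa at 4908 and 1524 RPKM. The gene of the common leukocyte antigen, Ptprc, was listed at 1.17 and 0.989 RPKM.

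The B cell markers fell into a readily detected group of 3 genes and a low group of 5 genes. Fcer2a, Cd79b and Blk had reads in both libraries, whereas Cd79a, Fcrla, Ms4a1, Cd22 and Pax5 had low values in mTEChi and were listed at 0 in mTEClo. In mTEChi the order of levels was Fcer2a, Cd79b, Blk, Cd79a, Fcrla, Ms4a1, Cd22 and Pax5. The leading 3 held 89.7% of the summed level of 55.2 RPKM. In mTEClo the order was Cd79b, Fcer2a and Blk, with a sum of 16.8 RPKM. Counting intervals (95%, exact Poisson, on reads recovered from RPKM and transcript length, covering counting error only) separated all neighbours in the order of mTEChi except Cd79a and Fcrla, and all 3 genes above 0 in mTEClo.

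**Figure D1:**
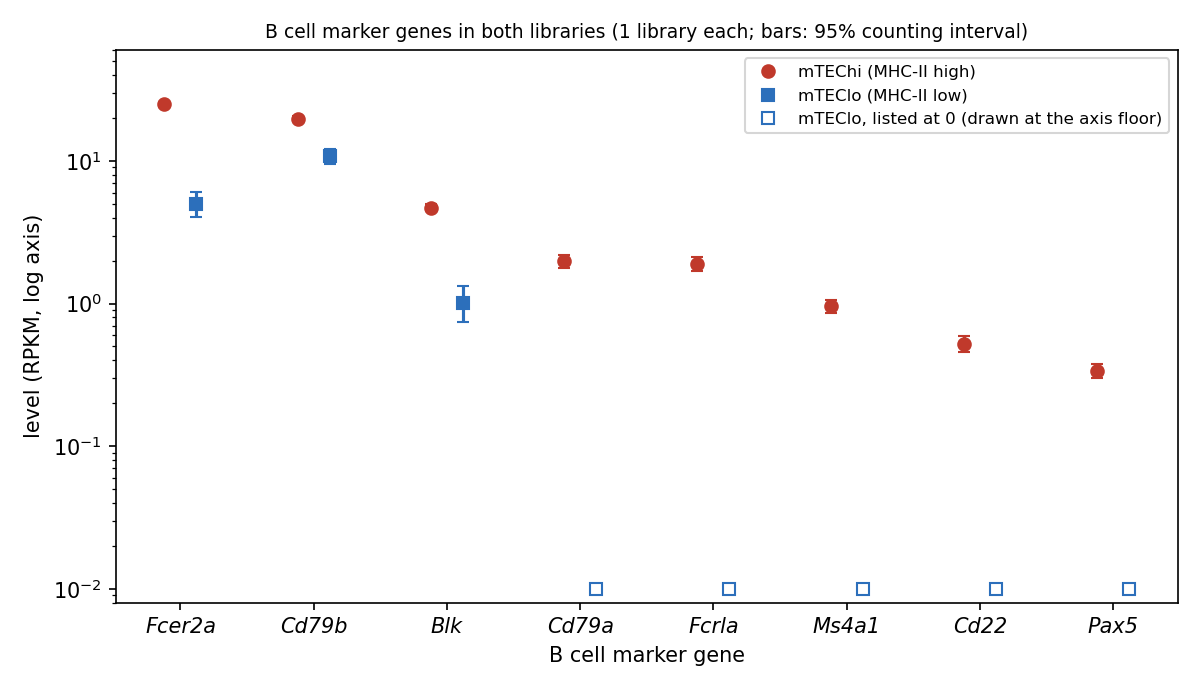
Levels of the 8 B cell marker genes in RPKM (log axis), with circles for mTEChi and squares for mTEClo, 1 library each, and bars for the 95% counting interval. Fcer2a, Cd79b and Blk were listed above 0 in both libraries, and the other 5 genes, drawn as open squares at the axis floor, were listed at 0 in mTEClo.

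Changes are log2 ratios of mTEChi over mTEClo after adding 1 RPKM to each value, with mTEClo multiplied by 1.21, the factor that centres genes of high expression on a log2 ratio of 0. The added 1 RPKM understates changes of genes with low values. A gene was kept when its mean over both libraries was 0.5 RPKM or more, and 2-fold was the threshold for counting a gene as higher or lower. Of the 8 markers 5 were kept, namely Cd79a, Cd79b, Blk, Fcer2a and Fcrla, and Ms4a1, Pax5 and Cd22 were not. Of these 5, 4 were at least 2-fold higher in mTEChi and 0 were 2-fold lower, with Cd79b as the exception. Among all 15590 kept genes 16.1% were 2-fold higher and 9.35% 2-fold lower. Cd79a and Fcrla pass 2-fold by construction, since any kept gene listed at 0 in mTEClo does. The median log2 change of the 5 was 1.53, which is the value of Fcrla, and 1.37 over the 3 above 0 in mTEClo. The median over all kept genes was 0.03, and -0.02 over those above 0 in mTEClo. Among markers above 0 in mTEClo, 2 of 3 were 2-fold higher, where 11.4% of 14761 kept genes above 0 were 2-fold higher and 9.87% 2-fold lower.

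The signalling chains of the B cell receptor were unequal in level. Cd79b, which encodes Ig-beta, was listed at 19.8 RPKM in mTEChi (95% counting interval 19.1 to 20.6) and 10.8 RPKM in mTEClo (9.53 to 12.1). Its log2 change of 0.57 was the smallest of the kept markers and did not reach 2-fold. Without the added 1 RPKM the log2 ratio was 0.60, with a counting interval from 0.42 to 0.79. Cd79a, which encodes the partner chain Ig-alpha, was listed at 1.98 RPKM (1.77 to 2.20) in mTEChi and at 0 in mTEClo. The Cd79b level was thus 10.04 times the Cd79a level in mTEChi, with a counting interval from 8.96 to 11.3. The proteins are known to form a heterodimer. At that ratio mTEClo would have held 32.7 reads of Cd79a, and it listed none.

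Blk, the Src-family kinase gene of B cells, was listed at 4.71 RPKM in mTEChi (4.45 to 4.98) and 1.01 RPKM in mTEClo (0.746 to 1.33). Its log2 change was 1.37, and 1.95 without the added 1 RPKM (counting interval 1.54 to 2.39). About 1258 reads stood behind the mTEChi and 49 behind the mTEClo value, so mTEClo limits the precision. Relative to Cd79b within the same library, a ratio that scaling between libraries does not touch, Blk stood at 0.238 in mTEChi (0.222 to 0.254) and 0.0932 in mTEClo (0.0676 to 0.127). The counting intervals of these ratios do not overlap.

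Fcer2a, which encodes the low-affinity IgE receptor CD23 of mature B cells, had the highest level of the markers in mTEChi. It was listed at 25.0 RPKM in mTEChi (24.02 to 25.9) and 5.005 RPKM in mTEClo (4.05 to 6.09). The log2 change was 1.88, the largest among markers above 0 in both libraries, and 2.05 without the added 1 RPKM (1.76 to 2.36). All 7 transcript lines of Fcer2a gave nearly the same values, from 23.6 to 25.0 RPKM in mTEChi and from 4.55 to 5.005 RPKM in mTEClo. These lines share exons, so the files do not tell the transcripts apart. The longest line, of 2242 bases, had about 6076 reads in mTEChi and 213 in mTEClo. Fcer2a stood above Cd79b in mTEChi, at a ratio of 1.26 (1.19 to 1.33), and below it in mTEClo, at 0.464 (0.363 to 0.587).

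Relative to Ptprc, which leukocytes share, the same 3 genes were lower in mTEClo by differing amounts. Fcer2a stood at 21.3 times the Ptprc level in mTEChi (19.5 to 23.3) and 5.06 times in mTEClo (3.78 to 6.79). Cd79b stood at 16.9 times (15.5 to 18.5) and 10.9 times (8.62 to 13.96). For Blk the figures were 4.02 times (3.65 to 4.44) and 1.02 times (0.709 to 1.46). For each of these genes the counting intervals of the libraries do not overlap. Over the 9 pan-leukocyte genes above 0 in both libraries, Ptprc included, the direction varied with the gene chosen. The ratio was lower in mTEClo over 7 of them for Fcer2a and for Blk, and over 3 of them for Cd79b. Over Coro1a, for example, Cd79b stood at 0.900 in mTEChi and 1.64 in mTEClo. Of the same 9 genes, 5 stood above Cd79b and above Fcer2a in both libraries.

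The remaining markers had low levels. Ms4a1, the gene of the B cell surface protein CD20, was listed at 0.957 RPKM in mTEChi (0.858 to 1.06), from about 338 reads. Cd22, an inhibitory sialic acid receptor, was listed at 0.520 RPKM (0.456 to 0.590), and its other transcript line at 0.514 RPKM. Fcrla, an intracellular relative of the Fc receptors, was listed at 1.90 RPKM (1.69 to 2.12), and its 3 lines spanned 1.82 to 1.90 RPKM. Each of these genes was listed at 0 in mTEClo on every line. The transcription factor gene Pax5 was listed at 0.339 RPKM in mTEChi (0.302 to 0.379), the lowest of the markers, and at 0 in mTEClo. Its long transcript of 8004 bases still gave about 311 reads in mTEChi. In a later annotation (GENCODE for GRCm38), antisense or unclassified genes on the opposite strand cover 636 and 125 of 8853 exon bases of Pax5, and an antisense gene covers 479 of 5042 exon bases of Cd22. The library kit did not mark strand, so reads from these overlaps cannot be assigned. No other gene's exons overlapped those of the other 6 markers.

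The reads expected for the genes listed at 0 in mTEClo can be set beside those zeros. If the 5 genes had the same scaled level in both libraries, mTEClo would have held 50.8 reads of Ms4a1, 49.7 of Cd79a, 46.9 of Pax5, 44.9 of Fcrla and 35.7 of Cd22. If instead they had dropped with Fcer2a, mTEClo would have held from 8.65 reads of Cd22 to 12.3 of Ms4a1. All 5 were listed at 0. Zeros were common in that file, however. Of 895 genes with as many expected reads (35.7 to 50.8), 219 (24.5%) were listed at 0 and only 16 had 1 to 3 reads, while the 676 genes above 0 had a median of 47.4 reads. Over all named genes 30.9% were listed at 0 in mTEClo, and 5.32% of kept genes were. Rps21, needed for ribosomes in every cell, was at 0 there as well, although 979 reads were expected. A value of 0 is therefore given here only as listed, and no fold change is printed for such a gene, except where it sets or enters a median. The log2 change of Fcrla, 1.53, is printed because it is the markers' median, and it rests on the added 1 RPKM. Some later medians also rest on such genes, as marked there. The plot of log2 changes by list also draws kept genes at 0, as open circles. Kept genes at 0 still enter the list counts and medians, which are also given without them where they differ.

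**Figure D2:**
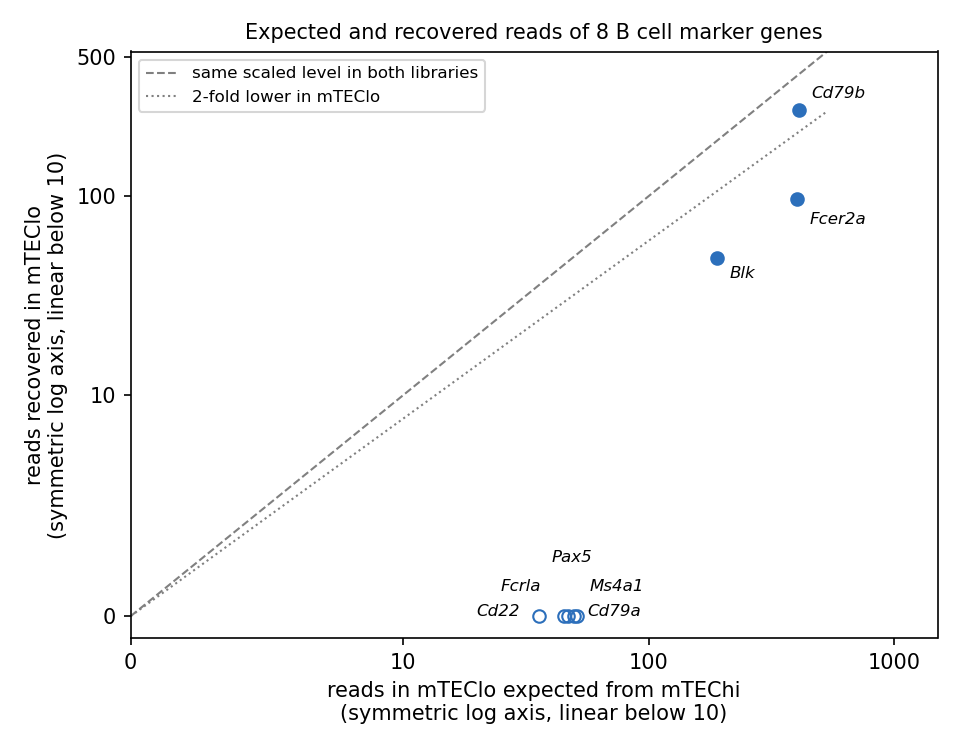
Reads recovered in mTEClo against those expected from mTEChi at an unchanged scaled level, for the 8 B cell marker genes (symmetric log axes, linear below 10), with lines for an unchanged level and for a 2-fold lower one. Cd79b lies between the lines at 269 reads, Blk (49 reads) and Fcer2a (97 reads) lie below both, and the 5 open circles are the genes listed at 0.

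**Figure D3:**
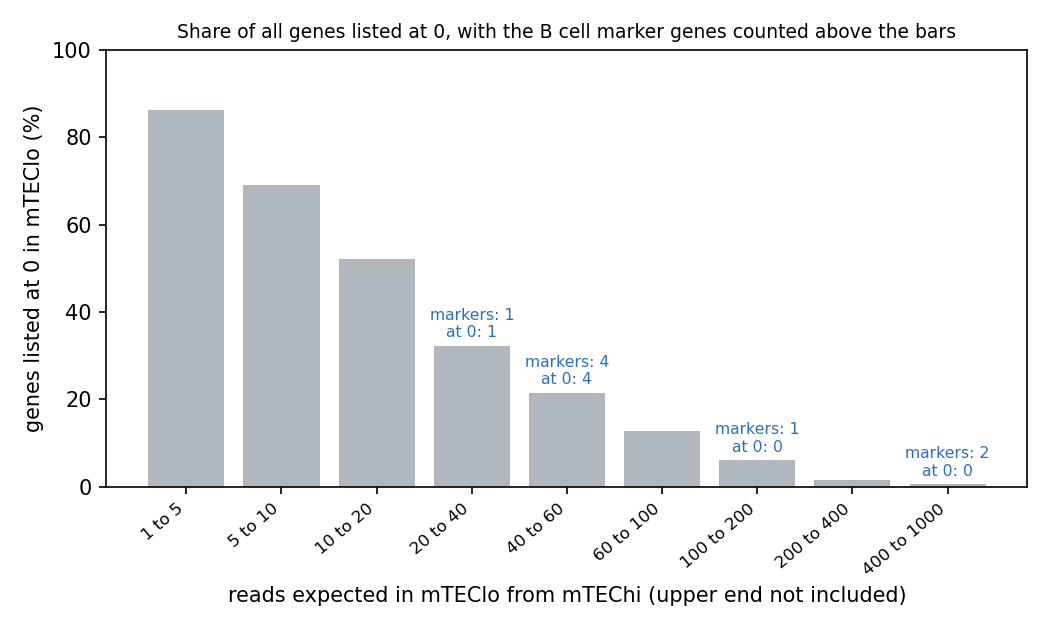
Percent of all genes listed at 0 in mTEClo (bars), by the number of reads expected there from mTEChi, with the B cell markers of each class counted above the bars. Of genes with 40 to 60 expected reads 21.4% were listed at 0, and all 4 markers in that class were.

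Upstream windows of the markers can be compared with these levels, since Cd79a is a textbook target of the B lineage factor EBF1. RefSeq windows (GRCm38.p6, from 250 bases before to 50 after the start) were at hand for 5 of the 8 markers, 7 windows in all. Both strands were searched for CCCNNGGG (the inner EBF1 palindrome), GGGAAT (an outer part of the EBF1 site, which can overlap the palindrome), ATGCAAAT (the octamer) and GAGGAA (a core bound by PU.1 and other Ets factors). The windows of 3 genes listed at 0 in mTEClo and of Fcer2a, which was not, are shown 5′ to 3′, with matches on either strand in capitals. The Fcer2a window is the one at the start of its line with 24.4 and 4.85 RPKM.
Cd79a, chr7:24897247-24897546, plus strand: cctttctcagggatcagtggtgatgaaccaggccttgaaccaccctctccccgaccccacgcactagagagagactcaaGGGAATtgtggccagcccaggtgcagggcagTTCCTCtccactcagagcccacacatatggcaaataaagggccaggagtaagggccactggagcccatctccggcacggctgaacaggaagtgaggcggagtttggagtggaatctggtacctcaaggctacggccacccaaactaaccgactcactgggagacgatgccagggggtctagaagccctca
Cd22, chr7:30878979-30879278, minus strand: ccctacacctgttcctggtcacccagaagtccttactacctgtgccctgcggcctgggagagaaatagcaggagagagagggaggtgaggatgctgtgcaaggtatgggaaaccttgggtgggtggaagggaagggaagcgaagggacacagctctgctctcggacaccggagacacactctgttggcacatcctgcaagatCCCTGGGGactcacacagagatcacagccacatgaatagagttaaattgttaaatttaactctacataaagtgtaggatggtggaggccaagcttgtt
Fcrla, chr1:170927534-170927833, minus strand: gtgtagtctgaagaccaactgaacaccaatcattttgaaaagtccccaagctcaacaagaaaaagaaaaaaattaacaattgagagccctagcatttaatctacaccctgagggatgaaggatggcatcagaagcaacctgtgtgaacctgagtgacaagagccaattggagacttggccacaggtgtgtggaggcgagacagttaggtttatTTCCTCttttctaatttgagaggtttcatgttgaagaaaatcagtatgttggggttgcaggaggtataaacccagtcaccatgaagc
Fcer2a, chr8:3690812-3691111, minus strand: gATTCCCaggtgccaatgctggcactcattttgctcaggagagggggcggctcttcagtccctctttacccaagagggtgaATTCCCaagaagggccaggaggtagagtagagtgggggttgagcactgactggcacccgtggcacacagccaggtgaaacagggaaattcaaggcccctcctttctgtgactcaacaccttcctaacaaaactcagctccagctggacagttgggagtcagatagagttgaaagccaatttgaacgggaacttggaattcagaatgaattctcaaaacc
The Cd79a window held GGGAAT and, on the other strand, GAGGAA. The Cd22 window held CCCNNGGG and the Fcrla window GAGGAA. The Fcer2a window shown held GGGAAT at 2 places. Of the windows not shown, that of Pax5, also listed at 0 in mTEClo, held no match. The Fcer2a window at the start of its longest line held no match either, and its remaining window held GGGAAT. Over the 7 windows, CCCNNGGG was found in 1, GGGAAT in 3, GAGGAA in 2 and ATGCAAAT in 0. Of all 32851 windows of the same length, 13.7% held CCCNNGGG, 13.1% GGGAAT, 28.3% GAGGAA and 1.74% ATGCAAAT. A match describes letters only.

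Other B cell genes were mixed. In 5 further lists with 68 genes, 66 were matched and 56 kept, of which 20 (35.7%) were at least 2-fold higher in mTEChi, 5 (8.93%) at least 2-fold lower and 31 neither. The median log2 change was 0.39. Among the 51 above 0 in mTEClo 15 (29.4%) were higher and 5 lower. Over all kept genes 16.1% were higher and 9.35% lower, and over those above 0 in mTEClo 11.4% and 9.87%. These lists were written with earlier results of the same data known.

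Surface genes of B cells had 5 of 13 kept members higher, 1 lower and a median of 0.42, and among the 12 above 0 in mTEClo 4 were higher, with a median of 0.31. Cr2, the complement receptor of B cells and follicular dendritic cells, had 2.69 against 0.578 RPKM (1.12). Cxcr5, the chemokine receptor that leads B cells to follicles, had 7.95 against 0.0915 RPKM (3.01), with about 5 reads behind the low value. Ly86 was listed at 1.67 RPKM and at 0. Fcgr2b, an inhibitory Fc receptor that macrophages and endothelium also use, went the other way with 2.70 against 17.0 RPKM (-2.54).

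Genes that act downstream of the B cell receptor mostly lay within 2-fold, with 2 of 14 kept members higher, 0 lower and a median of 0.26. The share of higher ones is close to the 16.1% of all kept genes. Blnk, the adaptor that links the receptor to its effectors, had 39.0 against 15.02 RPKM (1.06), a level well above those of Cd79a and Blk. Pik3ap1, an adaptor for PI3 kinase, had 2.01 against 0.146 RPKM (1.36). Dapp1, an adaptor that binds membrane lipids, had 23.7 against 12.8 RPKM (0.58). Btk, the kinase that phospholipase C signalling needs in B cells, was listed at 0.594 RPKM and at 0 and was not kept.

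Transcription factors of the lineage had 4 of 14 kept members higher, 3 lower and a median of -0.02, which was above 0 under each of the other scalings run. Ebf1, which acts with Pax5 in early B cells and is also used by stromal cells, had 0.923 against 1.47 RPKM (-0.53). Spib, an Ets factor of B cells, plasmacytoid dendritic cells and mTEC, had 130.3 against 92.7 RPKM (0.22). Pou2af1, a co-activator at octamer sites, had 11.8 against 4.18 RPKM (1.08) and Irf4 19.9 against 3.74 RPKM (1.92). Id3 had 90.9 against 231 RPKM (-1.61), and Bcl11a 1.31 against 3.85 RPKM (-1.29).

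Precursor B cell genes had 4 of 7 kept members higher and 1 lower, with a median of 1.24. That median is the value of Vpreb2, which was listed at 0 in mTEClo and rests on the added 1 RPKM. Among the 5 above 0 in mTEClo 2 were higher, with a median of 0.10. Vpreb3, which binds the light chain early in B cells, was listed at 2.55 RPKM and at 0. Il7r had 2.58 against 0.0298 RPKM (1.79), with about 2 reads behind the low value, and Cd93, which endothelium uses too, 0.577 against 5.16 RPKM (-2.20). Plasma cell genes had 5 of 8 kept members higher, 0 lower and a median of 1.09. That median lies between Derl3 and Mzb1, and Mzb1 was listed at 0 in mTEClo. Among the 6 above 0 in mTEClo 3 were higher, with a median of 0.86. Jchain, the joining chain of secreted antibody, was listed at 2.57 RPKM and at 0. Tnfrsf17, the receptor BCMA, had 15.0 against 0.589 RPKM (3.22). Igkc and Ighm were not matched to a transcript line.

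**Figure D4:**
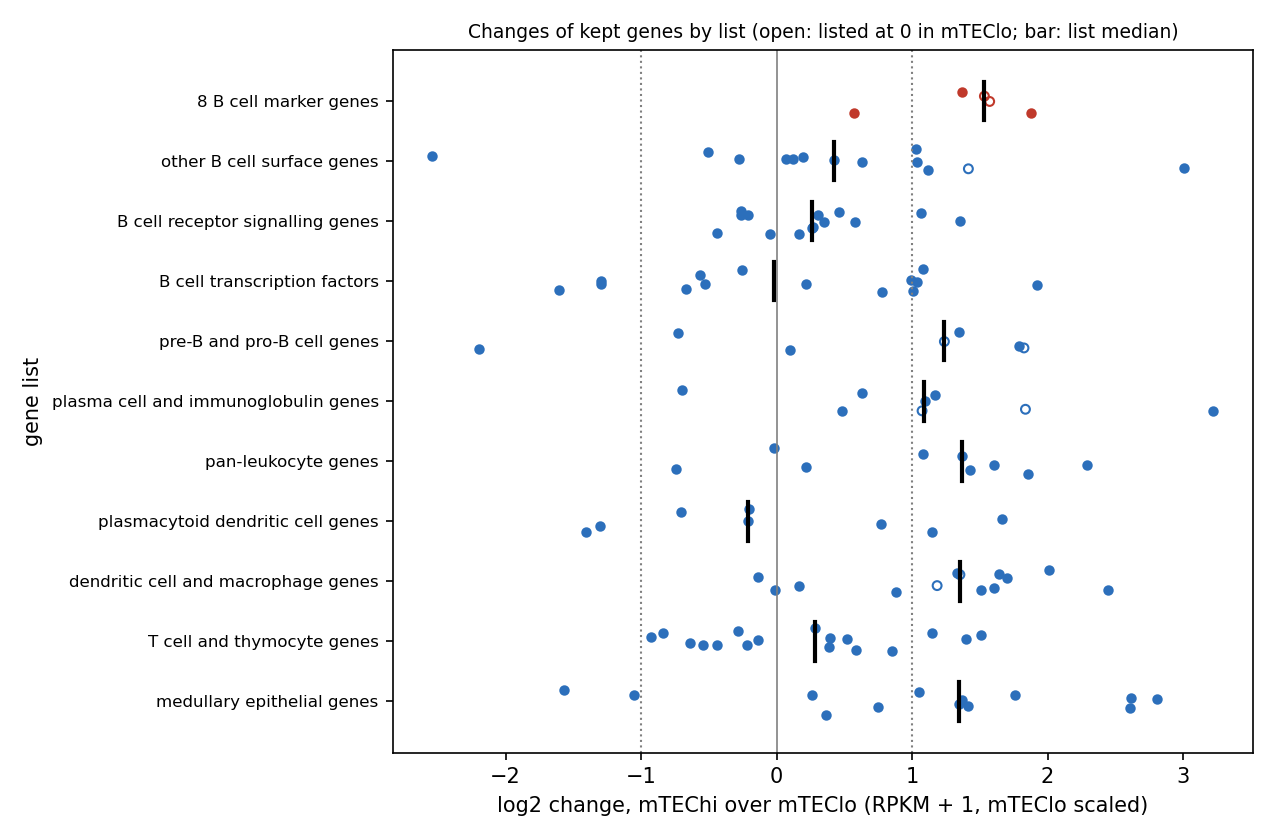
Log2 changes of kept genes (mTEChi over mTEClo, RPKM + 1, mTEClo scaled) for the B cell markers and 10 other lists, with open circles for genes listed at 0 in mTEClo, black bars for list medians and dotted lines at 2-fold. The markers' bar at 1.53 is the value of Fcrla, an open circle, and the filled circles of the markers are Cd79b (0.57), Blk (1.37) and Fcer2a (1.88). The bars of the other B cell surface (0.42) and receptor signalling (0.26) lists lie left of the 2-fold line.

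Some lists named for other blood cells also had many members higher in mTEChi. Of all kept genes, 16.1% were 2-fold higher and 9.35% 2-fold lower. Pan-leukocyte genes had 6 of 9 kept members 2-fold higher in mTEChi, 0 lower and a median of 1.37, with summed levels of 1741 and 476 RPKM. Cd52 led them with 1175 against 198 RPKM (2.29), followed by Tyrobp (7.42 against 1.10 RPKM, 1.85) and Rac2 (82.6 against 21.9 RPKM, 1.60). The kept members that were not 2-fold higher were Ptprc (-0.02), Cd53 (1.36 against 0.854 RPKM, 0.21) and Arhgdib (-0.74). Dendritic cell and macrophage genes had 9 of 13 kept members higher, 0 lower and a median of 1.35. That median is the value of Cd209a, which was listed at 0 in mTEClo. Their summed levels were 577 and 158 RPKM, and Lyz2 alone held most of both sums. Among the 11 above 0 in mTEClo 7 were higher, with a median of 1.51, beside 11.4% of all kept genes above 0 there. C1qb had 22.3 against 2.71 RPKM (2.44), C1qc 10.99 against 1.63 RPKM (2.01), Itgam 5.12 against 0.726 RPKM (1.70) and Lyz2 493 against 133 RPKM (1.61), while Itgax had 0.690 against 0.583 RPKM (-0.01). Flt3, Xcr1, Clec9a, Cd209a and Fcgr1, 5 of the 18 genes matched, were listed at 0 in mTEClo, where 30.9% of all named genes were. At an unchanged scaled level, only 0.752 reads of Clec9a and 3.61 of Fcgr1 were expected there. For Cd209a, Xcr1 and Flt3 39.8, 46.0 and 80.5 reads were expected. Of the 18 genes, 6 were below 1 RPKM in mTEChi. Which cells gave the reads of these lists was not tested. The part of blood cells in the changes of the B cell markers was not tested either.

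Plasmacytoid dendritic cells share genes such as Spib, Blnk and Cd79b with B cells. Their list had 2 of 8 kept members higher, 2 lower and a median of -0.21 (0.02 under upper-quartile scaling), with summed levels of 879 and 351 RPKM. Siglech, their defining surface gene, was listed at 0.0981 RPKM in mTEChi and at 0 in mTEClo. Ly6d, which mTEC also express, had 632 against 165 RPKM (1.66), whereas Tcf4 had 2.18 against 6.15 RPKM (-1.41) and Pacsin1 1.16 against 3.60 RPKM (-1.30). T cell and thymocyte genes had 3 of 17 kept members higher, close to the 16.1% of all kept genes, 0 lower and a median of 0.29. Their summed levels were 46.6 and 28.8 RPKM, with none at 0 in either library. With 0.1 RPKM added in place of 1 RPKM, 5 were higher and 4 lower, beside 20.4% and 13.3% of all kept genes. Cd4 (5.13 against 0.959 RPKM, 1.51), Cd3d (2.21 against 0.180 RPKM, 1.40) and Cd247 (4.62 against 1.28 RPKM, 1.14) were the 3 higher ones with 1 RPKM added, and Cd3e had 0.576 against 1.4998 RPKM (-0.84). Medullary epithelial genes had 8 of 13 higher and 2 lower (median 1.35, the value of Cd74), led by Cd40 (2.80), Cd80 (2.62) and Aire (2.61). The higher ones include the class II chain genes H2-Aa (1.41) and H2-Ab1 (1.37) and their partner gene Cd74. The sort was made on MHC class II, so the count and median of this list are not independent of it.

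Genes near the median point of the kept markers were sought on the log2 scale of RPKM plus 1 over these 2 libraries. The candidates were 12068 genes with a single transcript line outside all lists. The median point is that of Blk in both libraries, so the genes found are neighbours of Blk. They are not close in level to the other kept markers. The nearest were Myh4 (4.80 and 0.971 RPKM, distance 0.035), Timp4 (4.85 and 1.01 RPKM, 0.036), Niban3 (4.83 and 0.964 RPKM, 0.044), Slc17a5 (4.53 and 1.002 RPKM, 0.047) and 1700119H24Rik (4.84 and 1.06 RPKM, 0.055). With 2 libraries this likeness to Blk says only that the levels were alike.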

How the data were processed

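Poly(A)-selected RNA of mTEC sorted into mTEChi and mTEClo was sequenced, 1 library each. Per the labels, Trizol RNA went into TruSeq libraries with no strand information. The authors deposited 1 RPKM value per RefSeq transcript for each library. CASAVA, Bowtie 1.0.0, bedtools and build mm9 appear in the submitters' processing notes, with no roles stated. The sources used here do not say how reads shared by isoforms were counted. The name and sequence tables belong to a later build (GRCm38), from RefSeq and GENCODE.

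Of the lines, 30216 were named through RefSeq and 180 through GENCODE, and 398 unnamed lines were left out. A gene's value is its line with the highest mean RPKM. Reads were recovered as RPKM times length, at the depth that brought lines with 1 to 40 reads closest to whole numbers. Of lines with 1 to 10 reads, 75.8% of 1453 (mTEChi) and 65.6% of 989 (mTEClo) were less than 0.1 away from a whole read. Ratio intervals are exact conditional binomial. The scaling factor was 1.21 (set on genes averaging at least 10 RPKM), the pseudocount 1 RPKM, the filter a mean of 0.5 RPKM and the threshold 2-fold. The step that counts 2-fold changes was tested on simulated data with counting error only. The simulation did not hold the added zeros of mTEClo, so it cannot speak for the calls of Cd79a and Fcrla. Named genes are all markers, fixed defining genes and up to 3 kept genes per list with the largest change. Some genes that this rule names are not reported here. Members and lists were chosen with earlier results of these data known. Alternatives were other pseudocounts, scalings, filters and line choices. Scripts ran in Python 3.11.15 with scipy 1.17.1, numpy 2.4.6, matplotlib 3.10.9 and pandas 2.3.3.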

Additional observations from a re-analysis of the deposited data

How the results depend on the processing

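No paired analysis was possible because each group has 1 library. Cd79b, Blk and Fcer2a kept their direction under the alternatives run. With a pseudocount of 5 RPKM, 1 of 5 kept markers (Fcer2a) was 2-fold higher. The markers' median was 0.48, the value of Cd79a, which was listed at 0 in mTEClo, with Blk at 0.64 and Fcer2a at 1.44. Of 56 other B cell genes 3 were higher and 3 lower. At that setting 5.63% of all kept genes were higher and 4.16% lower. With 0.1 RPKM Blk was at 1.87 and the median at 2.03. Cd79b was at 0.82 without scaling and 0.97 under upper-quartile scaling, still under 2-fold. Under the latter Fcer2a was at 2.25, and 3 of 56 other B cell genes were lower, beside 5.38% of all kept genes. These scalings moved the median of all kept genes from 0.03 to 0.25 and 0.37. At a mean of 1 RPKM or more, 2 of 3 kept markers were higher, beside 14.5% of all kept genes. Without genes at 0 in mTEClo, an alternative chosen after seeing the data, 2 of 3 were also higher, beside 11.4%. The median was 1.17 without the filter, where Ms4a1, listed at 0 in mTEClo, enters it. It was 1.88 with values of 0 at the bound of 3 reads. Of 300 alternative values for single lists, 251 stayed close to the reported ones and 49 moved. The median of B cell transcription factors (-0.02) was above 0 under 6 of 10 alternatives, at 0.06 to 0.30, and that of plasmacytoid dendritic cell genes (-0.21) under 2, at 0.02 with upper-quartile scaling and 0.15 without the filter. Depth limits the value of Blk in mTEClo, which rests on about 49 reads.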
